A study of Homo sapiens with 4 samples.

Results

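The genes described here are those of 6 G protein-coupled receptor kinases, GRK2 to GRK7, and of the 2 beta-arrestins, ARRB1 and ARRB2. They were found through the RefSeq accessions in the probe names, which matched all 8 genes, with 11 targets and 33 probes, among 17217 named genes in all. The RNA came from HEK293 cells, a human embryonic kidney line transformed with adenovirus DNA and grown in DMEM with 10% serum. All 4 arrays belong to a single group of biological replicates that received no treatment, so no condition is compared with another. The labels call the cell type normal, although the line is transformed, and the values describe this line only.

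When an agonist has activated a G protein-coupled receptor (GPCR), a GPCR kinase phosphorylates the receptor's intracellular parts, and an arrestin then binds the phosphorylated receptor. Bound arrestin keeps the receptor from its G protein, links it to clathrin and the AP-2 adaptor for uptake, and holds kinases such as those of the MAP kinase cascade. GRK2 and GRK3 are drawn to the membrane by free G protein beta-gamma subunits, GRK4, GRK5 and GRK6 sit at the membrane through lipid binding or palmitoylation, and GRK1 and GRK7 serve the visual receptors of rods and cones. HEK293 cells are a common host in which receptor desensitisation and arrestin recruitment are assayed.

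Levels are log2 probe intensities, summarised per gene. Each array has a baseline, which the study's rule sets at the mean plus 2 SD of genes that it took as seminal. They are called seminal genes here. A gene counts as detected when its level, less the baseline of the same array, averages above 0 over the 4 arrays, and this difference is called its distance. The baseline was 10.10 ± 0.52 log2 units (SD, n = 4), lowest on replicate 1 at 9.47 and highest on replicate 3 at 10.69. Between pairs of arrays Pearson's r across genes, which are not independent replicates, ran from 0.949 to 0.977. Photoreceptor markers gave 0 of 9 detected, with mean distances from -3.52 to -0.80, and leukocyte markers 0 of 8, from -3.56 to -0.75. The highest photoreceptor marker was nevertheless above the baseline on replicates 2 and 4, at 0.67 and 0.12. All 10 reference genes were detected. Of 7 kidney and neurofilament markers 5 were detected, led by the neurofilament genes NEFL at 4.01 ± 0.56 and INA at 2.41 ± 1.04 (SD, n = 4 for each). The others were WT1 at 0.81 ± 1.03, NEFM at 0.66 ± 3.08 and SIX2 at 0.04 ± 0.45 (SD, n = 4 for each). NEFM was above the baseline on replicates 1, at 4.10, and 3, and below it on replicates 2 and 4, at -1.62 and -2.24, and its mean without replicate 1 was -0.49. The embryonic kidney factors PAX2 and LHX1 lay below the baseline at -1.63 ± 0.74 and -1.44 ± 1.01 (SD, n = 4 for each), so at this baseline the kidney label is borne out by its markers only in part. Without the seminal genes SPATA5 and SPATA13 the baseline is lower. All 7 kidney and neurofilament markers were then detected, with 4 of 9 photoreceptor and 3 of 8 leukocyte markers, where 74.0% of all named genes were.

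Message for both beta-arrestins and for GRK3, GRK5 and GRK6 was detected, 5 of the 8 genes, where 52.7% of all named genes were. ARRB2 stood far above the rest, GRK6, GRK5 and GRK3 formed a middle group with nearly equal signals, and ARRB1 lay just over the baseline. GRK4 was below the baseline on each array by a smaller margin, and GRK7 and GRK2 had signals as low as those of most seminal genes. The limma test called 4 of the 8, all but ARRB1 of those detected, against 45.9% of all genes. The same 4 lay above the baseline on all 4 arrays, against 45.0% of all genes, and the other side held 3 genes that were below it on all 4 arrays, against 39.8%. On every array those 4 genes also exceeded the highest of the seminal genes, as 45.3% of all genes did. With so few genes these shares are a description and not a result about the set. In RNA from a whole culture, fewer cells with a message and less message per cell cannot be told apart.

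**Figure D1:**
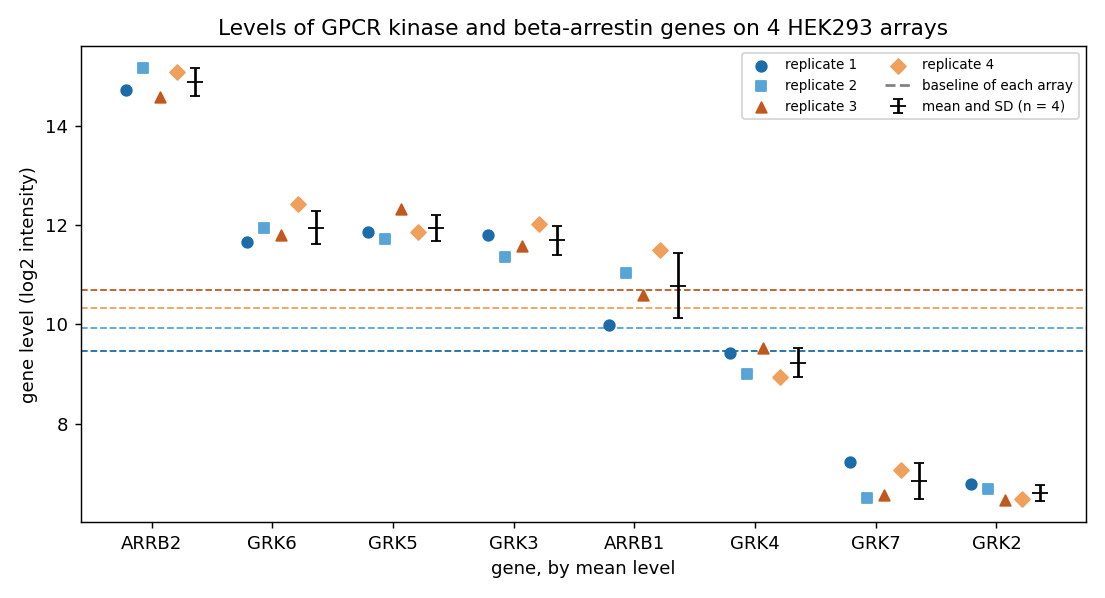
Gene level on the log2 intensity scale (vertical axis) for each of the 8 genes, ordered by mean level, with a point for each of the 4 replicates, the mean and SD (n = 4) as a bar, and the baseline of each array as a dashed line in that array's colour. ARRB2 lies at 14.58 to 15.18, GRK6, GRK5 and GRK3 between 11.36 and 12.42, and GRK7 and GRK2 at or below 7.22.

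The sequences in front of the start sites are given for the highest gene, for a kinase of the middle group and for the kinases with the lowest signals, because genes with unlike signals can be seen side by side. RefSeq promoter entries of build GRCh38.p14 matched 6 of the 8 genes, all but GRK3 and ARRB1. Each run below is the 250 bases before the annotated start, 5′ to 3′ on the plus strand, with capitals on every GGGCGG (the GC box, on either strand). The regions are chr17:4710382-4710631 for ARRB2, chr5:177426426-177426675 for GRK6, chr11:67266223-67266472 for GRK2 and chr3:141763158-141763407 for GRK7.
ARRB2: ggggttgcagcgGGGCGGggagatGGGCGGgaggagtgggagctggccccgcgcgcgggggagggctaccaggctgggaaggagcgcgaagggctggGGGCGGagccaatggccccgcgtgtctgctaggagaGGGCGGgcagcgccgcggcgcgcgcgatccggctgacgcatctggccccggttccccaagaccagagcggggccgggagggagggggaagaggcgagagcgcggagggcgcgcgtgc
GRK6: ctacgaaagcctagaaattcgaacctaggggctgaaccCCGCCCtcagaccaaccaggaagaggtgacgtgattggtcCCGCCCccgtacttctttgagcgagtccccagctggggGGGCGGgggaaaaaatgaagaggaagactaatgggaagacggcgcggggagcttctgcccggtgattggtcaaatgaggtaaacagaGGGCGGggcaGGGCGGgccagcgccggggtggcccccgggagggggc
GRK2: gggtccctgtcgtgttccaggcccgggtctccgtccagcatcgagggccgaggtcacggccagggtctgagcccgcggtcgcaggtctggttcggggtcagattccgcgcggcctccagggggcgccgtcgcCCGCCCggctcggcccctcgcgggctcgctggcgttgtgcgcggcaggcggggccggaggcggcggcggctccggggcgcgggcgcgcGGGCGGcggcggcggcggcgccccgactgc
GRK7: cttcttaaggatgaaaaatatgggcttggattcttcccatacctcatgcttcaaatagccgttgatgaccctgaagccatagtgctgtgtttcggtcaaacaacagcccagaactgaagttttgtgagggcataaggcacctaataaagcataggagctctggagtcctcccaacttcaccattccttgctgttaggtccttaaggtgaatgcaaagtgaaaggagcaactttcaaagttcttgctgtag
The GC box occurred 4 times in the ARRB2 run, 5 times in GRK6, 3 times in GRK5, 2 times in GRK2 and 0 times in GRK4 and GRK7, and 42.6% of all 35114 promoters held at least 1. CCAAT on either strand occurred 2 times in GRK6 and 1 time in ARRB2, and 32.0% of promoters held it. TATAAA on either strand was in 0 of the 6 runs and in 10.7% of promoters. The CpG count was 31 for ARRB2, 17 for GRK6, 35 for GRK5, 36 for GRK4 and 43 for GRK2, against a median of 11 over all promoters, and 2 for GRK7. Low signal thus went with a CpG-poor run for GRK7 and with the CpG-richest of the 6 runs for GRK2. These letters describe the windows only, and no binding or methylation was measured.

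ARRB2, which binds a wide range of phosphorylated receptors and takes them to clathrin-coated pits, had the highest signal of the 8. Its levels were 14.73, 15.18, 14.58 and 15.09 on replicates 1 to 4. All 4 values were far above the baselines, and replicates 2 and 4 were the higher ones. The mean distance was 4.79 ± 0.64 log2 units (SD, n = 4; limma adjusted p = 6.5e-41, one-sided), at or above that of 97.8% of named genes. Its 3 probes ran from 14.00 to 15.55 over the arrays, and none fell under the baseline of any array. The brightest probe averaged 15.27 where the highest probe on any array read 15.99, and saturation of single spots was not examined.

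The genes whose levels were most like those of ARRB2 were sought by the root mean square difference over the 4 arrays. They were the proteasome subunit gene PSMB2 at 0.09 log2 units, the kinase gene VRK1 at 0.11 and the tyrosyl-tRNA synthetase gene YARS1 at 0.12. Their mean levels were 14.86, 14.90 and 14.86, against 14.90 for ARRB2. This is likeness of signal over 4 replicates of a single group.

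ARRB1, the other beta-arrestin, had levels of 9.99, 11.05, 10.60 and 11.51 on replicates 1 to 4. Its distances were 0.52, 1.11, -0.09 and 1.19 on those arrays, so that replicate 3 fell just under its own baseline. The mean distance of 0.68 ± 0.60 (SD, n = 4) barely exceeded the spread, and the limma adjusted p was 0.057. The call depended on the array left out, at 0.94 (adjusted p = 0.014) without replicate 3 and 0.73 (adjusted p = 0.042) without replicate 1. The level of ARRB1 varied most among the 8 genes, with an SD of 0.65 log2 units, at or above that of 78.2% of named genes. Its distance did not, as the SD of the distance was 0.77 for GRK7, 0.68 for GRK2 and 0.64 for ARRB2.

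The probes of ARRB1 did not read alike. The number that ends a probe's name was taken as its position along the transcript, because in 98.9% of 1806 probes to genes no longer than 1500 bases the 60-base probe placed there would end within the gene. The first 2 probes of each of the 2 targets averaged 11.09 and 11.17 in one and 11.44 and 11.08 in the other, above the mean baseline. The last probes, at 2118 and 2094, averaged 8.49 and 8.26 and were below the baseline on all 4 arrays. At 2118 the values were 6.52, 8.32, 9.64 and 9.49 on replicates 1 to 4, and at 2094 they were 6.96, 6.92, 9.10 and 10.06. Both were thus higher on replicates 3 and 4, where the lower quartile of all probes was 7.37, than on replicates 1 and 2, where it was 6.77. The part of that shift in the ARRB1 values was not tested.

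Between the targets of ARRB1, 2 pairs of probes were offset by the same 24 bases, as probes on a stretch common to 2 transcripts would be. Within an array the pair at 1302 and 1278 differed by 0.09 to 0.70 log2 units and the pair at 2118 and 2094 by 0.45 to 1.40, in both directions. The distances of the targets as a whole were 0.65 ± 0.83 and 0.71 ± 0.39 (SD, n = 4 for each), which do not differ beyond their spread. Within each array ARRB2 exceeded ARRB1 by 4.74, 4.13, 3.99 and 3.59 log2 units on replicates 1 to 4. The mean difference was 4.11 ± 0.48 (SD, n = 4), positive on all 4 arrays (exact two-sided sign-flip test, p = 0.125, the smallest that 4 arrays allow).

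**Figure D2:**
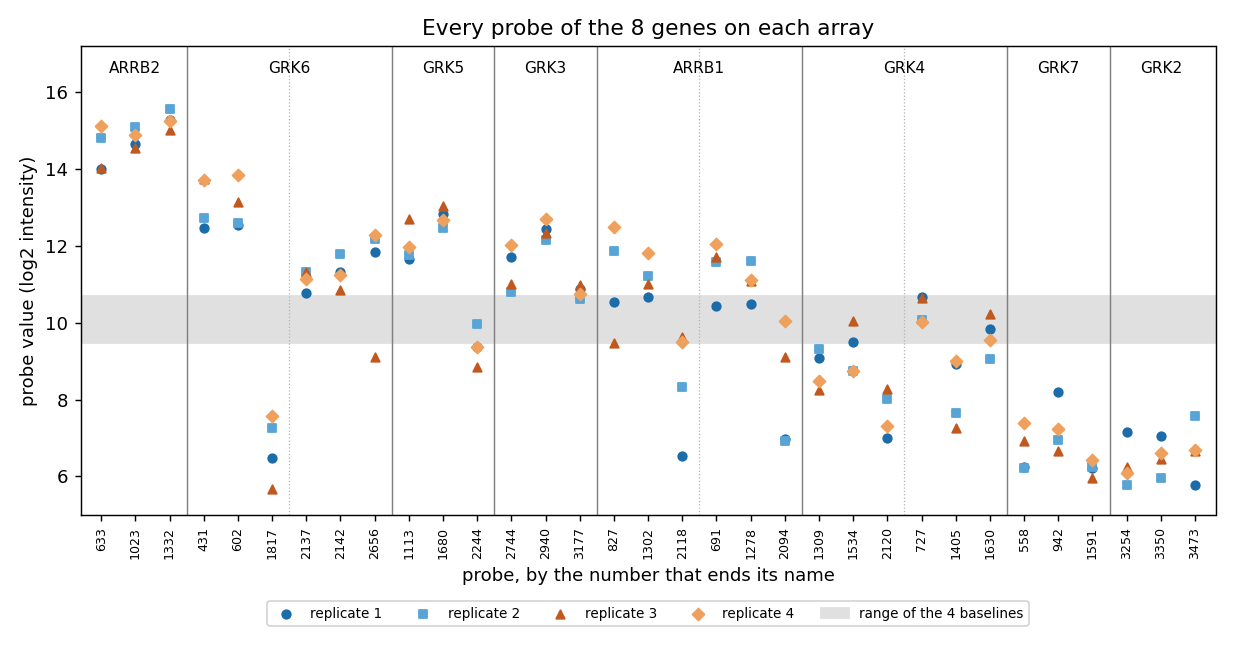
Value of each of the 33 probes (log2 intensity, vertical axis) on the 4 replicates, ordered by gene and target along the horizontal axis and labelled with the number that ends the probe's name; solid lines part genes, dotted lines part the 2 targets of a gene, and the grey band spans the 4 baselines. All 3 probes of ARRB2 lie at 14.00 or higher, whereas GRK6, GRK5 and ARRB1 each hold a probe near or below the band beside probes above it.

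In the GRK2 subfamily GRK3 was detected and GRK2 was not. GRK3, also known as ADRBK2, had level 11.81, 11.36, 11.58 and 12.03 on replicates 1 to 4, above the baseline on each array. Its mean distance was 1.59 ± 0.60 log2 units (SD, n = 4; limma adjusted p = 8.4e-06). All 3 probes were above the baseline on all 4 arrays, with means of 11.38, 12.40 and 10.80.

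GRK2, also known as ADRBK1 and commonly described as present in most tissues, had level 6.79, 6.67, 6.46 and 6.48. It was below the baseline on each array, at -3.50 ± 0.68 (SD, n = 4), and below the mean of the seminal genes on all 4 arrays, as 13.5% of all named genes were. Its 3 probes averaged 6.32, 6.52 and 6.67, and the highest single value among the 12 was 7.57. They were numbered 3254, 3350 and 3473, a span of 219 bases that is wider than or equal to that of only 9.83% of the 23999 targets with 3 probes. GRK2 therefore rests on a single target, read at a single stretch if the numbers are positions. Because GRK2 was below the baseline, no difference between the 2 genes is given.

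In the GRK4 subfamily GRK6 and GRK5 were detected and GRK4 was not. The study's own account of these cells differs for GRK4 and GRK6. It lists both beta-arrestins, GRK3, GRK4 and GRK5 as having significant message and does not name GRK6. The source of this difference was not tested. GRK6 had level 11.66, 11.95, 11.80 and 12.42 on replicates 1 to 4, and GRK5 had 11.86, 11.72, 12.33 and 11.86. The mean distances were 1.85 ± 0.50 and 1.84 ± 0.38 (SD, n = 4 for each; limma adjusted p = 2.2e-07 and 2.6e-07), above the baseline on all 4 arrays for both. The values of the genes overlap, and GRK6 was the higher on 2 of 4 arrays, with a mean difference of 0.01 ± 0.48 log2 units (SD, n = 4).

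The targets of GRK6 gave unlike distances, 2.42 ± 0.33 for the one that holds probes 431, 602 and 1817 and 1.28 ± 0.89 for the other (SD, n = 4 for each). On replicate 3 the second target was only 0.01 log2 units above the baseline. Probes 431 and 602 averaged 13.16 and 13.03, while probe 1817 of the same target averaged 6.75 and was below the baseline on all 4 arrays. Probes 2137 and 2142 of the second target would overlap by 55 bases if the numbers are positions, and their means were 11.14 and 11.30. Probe 2656 read 11.84, 12.18, 9.09 and 12.29, with replicate 3 far below the others. A similar split held for GRK5, where probes 1113 and 1680 averaged 12.02 and 12.75 and probe 2244 averaged 9.39, above the baseline on 1 of 4 arrays.

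GRK4 had level 9.42, 9.01, 9.53 and 8.94 and mean distance -0.88 ± 0.59 (SD, n = 4), with the shortfall on replicate 1 only 0.05 log2 units. Its target with probes 727, 1405 and 1630 stood at -0.42 ± 0.62 and the other at -1.34 ± 0.61 (SD, n = 4 for each). Probe 727 averaged 10.35 and exceeded the baseline on 2 arrays, and no other probe of the gene did so on more than 1. In 2 probe pairs offset by the same 96 bases, 1309 with 1405 and 1534 with 1630, the within-array differences reached 1.65 and 0.80 log2 units. GRK4 exceeded the mean of the seminal genes on all 4 arrays by a mean of 1.75 ± 0.45 (SD, n = 4), where GRK2 stood at -0.87 ± 0.51 and GRK7 at -0.63 ± 0.58 from that mean (SD, n = 4 for each).

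GRK7, the cone kinase, had level 7.22, 6.50, 6.56 and 7.07 and mean distance -3.27 ± 0.77 (SD, n = 4). Its 3 probes averaged 6.69, 7.26 and 6.21, and the highest single value was 8.21 on replicate 1. The retinal counterparts lay equally low. The rhodopsin kinase gene GRK1 stood at -3.27 ± 0.58, the rod arrestin gene SAG at -3.02 ± 0.62, the cone arrestin gene ARR3 at -3.33 ± 0.38, and RCVRN, for the rhodopsin kinase inhibitor recoverin, at -2.73 ± 0.85 (SD, n = 4 for each). All 4 were below the baseline on every array.

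Among the detected genes the order of mean levels was ARRB2, GRK6, GRK5, GRK3 and ARRB1. It is an order of signals, because each gene is read by its own probes, which differ in affinity. GRK6 minus GRK5 and GRK5 minus GRK3, at 0.25 ± 0.40 (SD, n = 4), did not exceed their spread, and each changed sign between arrays. The order of these genes also depended on the probe summary. With the mean of the log2 probe values it was reversed, with distances of 1.76 for GRK3, 1.61 for GRK5 and 1.35 for GRK6. ARRB2 exceeded GRK6 by 2.94 ± 0.26 and GRK3 exceeded ARRB1 by 0.91 ± 0.66 (SD, n = 4 for each), in the same direction on all 4 arrays. The exact two-sided sign-flip p was 0.125 for each of these and 0.179 after Benjamini-Hochberg adjustment over the 10 pairs computed, and with 4 arrays this test cannot pass 0.05. Both pairs are neighbours in the order of mean level on these same arrays, so that choice fixed the direction of their mean differences. GRK4, GRK7 and GRK2 were below the baseline and are not ranked, and the pairs that hold them are not given.

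Replicates 1 and 2 share a single distribution of values and replicates 3 and 4 another. On replicates 3 and 4 ARRB1 averaged 0.53 log2 units higher than on replicates 1 and 2, GRK5 and GRK6 each 0.31 higher and GRK3 0.22 higher, while the difference was 0.02 for GRK4, -0.04 for GRK7, -0.12 for ARRB2 and -0.26 for GRK2. A second split, of replicates 2 and 4 against 1 and 3, has no basis in the labels and was looked at after values had been seen. On replicates 2 and 4 ARRB1 averaged 0.98 higher, ARRB2 0.48 higher and GRK6 0.46 higher, while the difference was -0.50 for GRK4 and -0.30 for GRK5, and GRK2, GRK3 and GRK7 differed by at most 0.10 in either direction. With the baseline of each array taken off, ARRB1 stood at 0.21 on replicates 1 and 3 alone and at 1.15 on replicates 2 and 4 alone. Neither split was tested.

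The other genes of the pathway were taken from lists of textbook partners. Among 60 matched genes of the 6 lists outside the retina, 52 were detected (86.7%, against 52.7% of all named genes) and 48 were called by limma, which called 45.9% of all, with a median distance of 2.86 log2 units against 0.26 for all named genes and 1.14 for the 8 kinase and arrestin genes. The counts describe the lists, which hold many genes that most cells use.

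The uptake machinery that arrestin-bound receptors enter had 16 of 17 genes detected and 14 called. CLTC, the clathrin heavy chain, stood at 5.37 ± 0.66, the AP-2 subunit genes AP2M1 at 5.19 ± 0.68 and AP2B1 at 4.78 ± 0.67, and DNM2, the widely expressed dynamin, at 3.93 ± 0.35 (SD, n = 4 for each). AP2B1 encodes the subunit to which beta-arrestins bind. The lowest were AP2A2 at 0.23 ± 0.51 and the dynamin gene DNM3 at -2.43 ± 1.34 (SD, n = 4 for each), the latter the gene not detected. In endosomal sorting and recycling all 12 genes were detected and called, from RAB5A at 2.49 ± 0.73 to the late endosomal GTPase gene RAB7A at 4.76 ± 0.71 (SD, n = 4 for each). NHERF1, a PDZ adaptor of receptor recycling, stood at 4.06 ± 0.36, RAB11A at 3.87 ± 0.68, SNX27 at 3.52 ± 0.66 and the retromer gene VPS35 at 2.50 ± 0.84 (SD, n = 4 for each).

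Of 12 genes for enzymes that beta-arrestins hold, 11 were detected and 10 called. AKT1 stood at 4.44 ± 0.55, MAP2K1 at 4.25 ± 0.55 and PPP2CA, a phosphatase 2A catalytic subunit, at 3.89 ± 0.63 (SD, n = 4 for each). MAPK10, which encodes the JNK3 kinase bound by ARRB2, was the gene not detected at -2.73 ± 0.30, and MAP3K5, the ASK1 kinase of the same cascade, stood at 0.11 ± 1.02 with 2 of 4 arrays above the baseline (SD, n = 4 for each). Of 6 ubiquitin enzymes that act on arrestins or receptors 3 were detected and called, the deubiquitinase gene USP33 at 3.23 ± 0.50, WWP2 at 2.19 ± 0.48 and MDM2, the ligase for ARRB2, at 1.79 ± 0.34 (SD, n = 4 for each). The others, NEDD4 at -0.06 ± 0.87, USP20 at -0.12 ± 0.70 and ITCH at -0.36 ± 0.72 (SD, n = 4 for each), were each above the baseline on 2 of 4 arrays, and 3 of 6 is near the share over all named genes. Against the lower baseline without SPATA5 and SPATA13 all 6 were detected, beside 74.0% of all named genes.

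All 8 genes for GRK-binding proteins were detected and called. The calmodulin genes CALM3 and CALM2, whose product inhibits GRKs when calcium is bound, stood at 5.37 ± 0.68 and 5.02 ± 0.81, PEBP1, whose product can bind GRK2, at 5.10 ± 0.53, and the ARF GTPase-activating protein gene GIT1 at 3.47 ± 0.29 (SD, n = 4 for each). The lowest were NCS1 at 2.19 ± 0.53 and CAV1 at 2.05 ± 0.78 (SD, n = 4 for each). The alpha-arrestins, which share the arrestin fold, had 2 of 5 matched genes detected and 1 called, shares no higher than those over all named genes. ARRDC1 stood at 1.37 ± 0.57 and ARRDC4 at 0.16 ± 0.54, while ARRDC2 was at -0.43 ± 0.57, ARRDC3 at -1.25 ± 0.82 and TXNIP at -1.57 ± 0.70 (SD, n = 4 for each). With SPATA5 and SPATA13 left out of the seminal genes, all 5 were detected, beside 74.0% of all named genes.

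**Figure D3:**
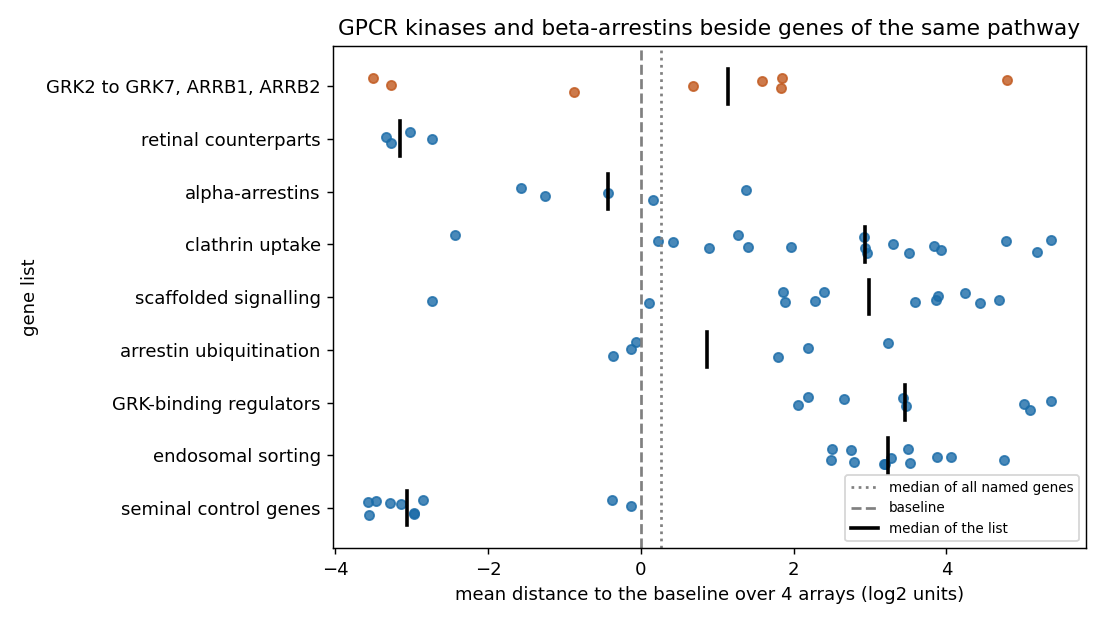
Mean distance to the baseline over 4 arrays (log2 units, horizontal axis) for each gene of the kinase and arrestin set, of the pathway lists and of the seminal control genes, a point for each gene and a black bar for each list's median. The 4 retinal genes and 8 of the 10 seminal genes lie below -2.7, all endosomal and GRK-binding genes lie above 2, and the kinases and beta-arrestins span -3.50 to 4.79.

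The side of the baseline on which GRK4 and ARRB1 fell depended on its height. The baseline rests on 10 genes that the study took as seminal. Of these AFG2A, listed in the study as SPATA5, and SPATA13 lay at 9.21 to 10.73 while the other 8 lay at 6.05 to 7.72. Whether that pair is silent in these cells, as the rule assumes, was not tested. Against the controls without that pair GRK4 stood at 1.45 (limma adjusted p = 3.3e-06) and ARRB1 at 3.01, and 6 of the 8 genes were detected, where 74.0% of all named genes were. That lower baseline also passed 4 of 9 photoreceptor and 3 of 8 leukocyte markers. GRK2 and GRK7 stayed below the baseline under every alternative run, at -1.18 and -0.94 against that lowest baseline. ARRB2 stayed above it under every alternative run, from 3.47 to 7.12. With a baseline of 3 SD the limma test called only ARRB2 of the 8 (28.6% of all named genes), with GRK6 at 0.53, GRK5 at 0.52 and GRK3 at 0.27.

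**Figure D4:**
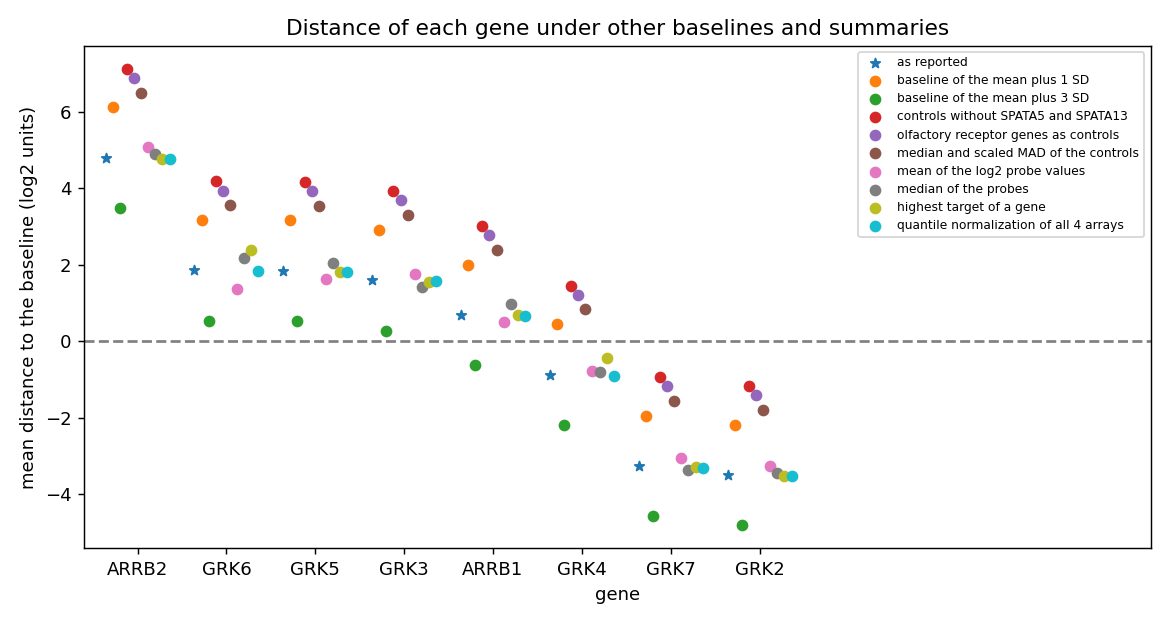
Mean distance to the baseline (log2 units, vertical axis) of each of the 8 genes as reported (stars) and under 9 other baselines, control sets, probe summaries or normalizations (circles). GRK4 and ARRB1 are the genes whose points lie on both sides of 0.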

How the data were processed

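RNA of 4 untreated HEK293 cultures was labelled with Cy3 and hybridised to NimbleGen 60-base arrays designed on HG18, with 3 probes per target. The authors deposited 71998 log2 probe values per array, extracted with NimbleScan, and the submitters' processing notes list RMA. Sorted values of replicates 1 and 2, and of 3 and 4, lay within 0.01 at 99.97% and 99.99% of ranks, the form of quantile normalization in 2 separate pairs. Such normalization can shift low values between the pairs. No raw intensities were used here, and the number of arrays limits precision.

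Accessions were matched without versions to RefSeq genes of GRCh38.p14, which named 19125 of 24000 targets. Probe values were averaged on the linear scale for each target and returned to log2, and the targets of a gene were then averaged. The baseline was the mean plus 2 SD of 10 matched seminal genes (PYY2 was not matched). Distances were tested one-sided against 0 (limma 3.58, R 4.3), and p-values were adjusted by Benjamini and Hochberg over 17217 genes at a threshold of 0.05. The prior degrees of freedom were infinite, so all genes share 1 standard error, and a baseline shift moves all genes of an array together, so that adjusted p-values are not independent. The baseline of each array was subtracted as a fixed value. The uncertainty of setting it from 10 seminal genes is therefore not in the p-values, and very small ones overstate the certainty of detection. The smallest p of an exact one-sided test by sign flips is 0.0625 with 4 arrays.

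The members and lists were chosen with earlier results of these data known. Genes were named by a rule, which took all 8 members, the control and retinal genes, the 4 highest and 2 lowest of each pathway list, detected marker genes, and the 3 genes nearest to the highest member. From that selection 1 gene is not reported here. Alternatives were other baselines, controls, summaries, normalization, blocks and left-out arrays.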

Additional observations from a re-analysis of the deposited data

Results flagged for a closer look

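Dixon's rule for 4 samples, which sets the gap to the nearest value against the whole range, marked 2 of the 59 levels, distances, differences and probe values it was applied to, where about 1 in 20 would be marked by chance. For GRK6 the distance on replicate 3 was 1.10, while the other arrays held 2.01 to 2.19 (ratio 0.837). GRK6 probe 2656 read 9.09 on replicate 3, with 11.84 to 12.29 elsewhere (ratio 0.859). The probe enters the gene's value and replicate 3 had the highest baseline of the 4, so the values are not separate observations, and the share of each in the low distance was not tested.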

How the results depend on the processing

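No paired analysis was possible because the labels give a single group. For the counts of genes and the differences ARRB2 minus ARRB1 and GRK3 minus GRK2, 58 alternative values stayed within 1.5 times (counts) or 1 SD (differences) of those reported and 2 moved further. With a baseline of 3 SD the limma test called 1 of the 8 genes (28.6% of all named genes), and with the mean of the log2 probe values ARRB2 minus ARRB1 was 4.59. Differences that hold a gene below the baseline, such as GRK3 minus GRK2, enter the counts here without their values. Among single genes and other differences 227 values stayed by these measures, 5 moved, 8 gained and 3 lost significance, and 5 distances changed sign. Of the values that stayed, 5 differences also changed sign, GRK5 minus GRK3 in 1 to -0.15 and GRK6 minus GRK5 in 4, down to -0.37, both being smaller than their spread between arrays as reported. ARRB1 fell to -0.64 with 3 SD, and GRK4 rose to 0.44 with 1 SD, 1.45 without SPATA5 and SPATA13, 0.83 with the median and scaled MAD of the controls and 1.20 with olfactory receptor genes as controls. These changes of sign in the distances follow from the height of the baseline, which was 11.42 log2 units with 3 SD and 7.78 without SPATA5 and SPATA13. Differences between genes are taken within an array and hold no baseline. With arrays left out in turn, limma called 4 to 5 of the 8 genes and 7477 to 8121 of all 17217. In these runs 5 of the 8 were detected, beside 50.6% to 54.3% of all named genes. Leaving out an array moved ARRB2 minus ARRB1 between 3.90 and 4.29. With the array pairs as random blocks the adjusted p of ARRB1 was 0.12. The use of arrays 1 and 3, 2 and 4, 1 and 2 or 3 and 4 alone was chosen after seeing the data. Each pair left 5 of the 8 genes detected, beside 48.8% to 55.9% of all named genes. Limits are the 2 SD rule itself, the lack of raw intensities and the 1 target behind GRK2, GRK3, GRK5, GRK7 and ARRB2.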
